A study of Homo sapiens with 3 samples.

Results

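Actin, myosin and their regulators were described across 3 stable derivatives of PANC-1, a widely used human cell line of pancreatic ductal adenocarcinoma. One line carried the empty MSCV-bank vector and served as control, one expressed wild-type JMJD3, and one a mutant form. The gene KDM6B encodes JMJD3, which removes methyl groups from histone H3. No line received any further treatment, all 3 share the PANC-1 background, and each was represented by 1 array, so there were no replicates, no test was run and no difference could be set against a spread between samples. The labels do not say which mutation was used, which vector drove JMJD3, or whether a line was a clone or a pool. The genes were listed by name and role: of 53 listed genes, 49 had a probe set annotated with 1 gene symbol, out of 19775 genes on the arrays with such a probe set. ACTG1, TPM3, FLNA and FLNC had no such probe set and were not analysed here. Each gene was read at its brightest probe set, by the mean log2 signal of the arrays.

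Actin filaments grow from monomers that profilin supplies, are nucleated by the Arp2/3 complex and formins, and are severed by cofilin and gelsolin. Bundles of filaments bound by tropomyosin and alpha-actinin become contractile when myosin II, switched on by phosphorylation of its regulatory light chains, pulls on them, and focal adhesions tie them to integrins. RHOA acts through the ROCK kinases and DIAPH1, while RAC1 and CDC42 act mainly on branched networks at the cell edge. Free actin monomer holds the MRTF coactivators away from the transcription factor SRF, which binds the CArG box in the promoters of many genes of this system. In carcinoma cells the same machinery drives cell shape, spreading and migration.

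Values are log2 signals as deposited, from 54613 probe sets, and a difference of 1 on this scale is 2-fold. Signals at or under the median of all arrays (log2 5.48) were set to that floor, and a gene with either array of a comparison over it counts as measured there. The array medians lay between 5.48 and 5.50, and 21.0% of all probe sets held the same value in the 3 arrays, so a difference of 0.00 does not show equal transcript levels. KDM6B read 5.53, just over the floor, in control at probe set 1556067_a_at. The wild-type line exceeded this 2.30-fold and the mutant line 1.89-fold. At 1556066_at these folds were 1.66 and 1.4, and at the brightest KDM6B probe set, 41387_r_at, 1.04 in both. Probe set 41386_i_at stood at 1 and 0.927 times control, and 213146_at read 5.12, under the floor, in every array. Where these lie against the introduced sequence is not stated, so they check the labels only in part. Keratins KRT7, KRT8, KRT18 and KRT19 were over the floor in all arrays, as was EPCAM, but the epithelial cadherin CDH1 read 4.62, under the floor, in each. In bulk RNA, a shift in the share of cells and one in RNA per cell cannot be told apart.

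Promoter sequence of the listed genes, from 250 bases before to 50 after a gene's start, was taken from RefSeq (GRCh38.p14), which held windows for 46 of the 53. The general pattern of the CArG box is the same on both strands, although a single box need not read alike on each. It was found in 7 of their 77 windows (9.09%), against 1.29% of all 35116 windows. They are shown because SRF and its coactivators were on the arrays, and because these 5 genes have readouts below. The box is in capitals, with 25 bases on each side, on the strand of the gene.
MYLK, chr3:123620608-123620667, minus strand: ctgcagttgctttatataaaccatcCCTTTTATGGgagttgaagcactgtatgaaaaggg
TPM4, chr19:16067340-16067399, plus strand: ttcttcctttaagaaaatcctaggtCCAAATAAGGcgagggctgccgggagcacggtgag
CNN2, chr19:1026494-1026553, plus strand: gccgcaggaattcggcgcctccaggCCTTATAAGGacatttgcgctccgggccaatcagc
ACTN1, chr14:68977703-68977762, minus strand: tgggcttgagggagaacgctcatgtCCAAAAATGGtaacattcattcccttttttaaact
ROCK2, chr2:11345476-11345535, minus strand: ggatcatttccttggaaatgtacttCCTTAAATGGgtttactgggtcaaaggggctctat
The boxes began 94 bases before the start in MYLK, 173 in TPM4, 89 in CNN2, 171 in ACTN1 and 73 in ROCK2. MYLK and CNN2 had 1 window each, while TPM4 had 3, ACTN1 4 and ROCK2 2, not all of which held the box. Which start gave the transcripts read on the arrays was not tested. The other 2 genes with a box, ACTG1 and FLNA, have no readout here. The letters GGAATG, the core that TEAD factors recognise, were searched on both strands and stood in 12 of the 77 windows (15.6%), against 14% of all windows. Of the 4 genes for which the wild-type array exceeded the mutant array over 2-fold, AJUBA and MYH9 held it, and MYL9 and TNNC1 had no window. Neither AJUBA nor MYH9 held a CArG box in its promoter sequence.
AJUBA, chr14:22976871-22976926, minus strand: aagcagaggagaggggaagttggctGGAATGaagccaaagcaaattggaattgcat
MYH9, chr22:36388007-36388062, minus strand: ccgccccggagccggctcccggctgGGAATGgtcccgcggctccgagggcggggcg
A match of letters is a description of the window and not a measured binding site.

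With wild-type JMJD3 against control, most measured genes of this system were modestly higher. Of 48 measured members, 41 were above control, 6 below and 1 level, which is 85.4% upward against 54.4% of 12697 measured genes. The median difference was 0.24, beside 0.05 over all measured genes and 0.09 over those brighter than log2 7.59. TNNC1 and GSN were higher by 2-fold or more, where 0.953% of all measured genes were, and 0 members were lower by that much, where 1.31% were. At 1.5-fold, TNNC1, GSN, MYL9, CNN3, MYLK, MYH9, VASP and EVL were higher (7.15% of all measured genes) and ROCK2 and RDX lower (9.08%). The median lay between 0.20 and 0.26 under every scaling, floor and probe set choice tried.

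With mutant JMJD3 against control, members fell on both sides. Of the 48, 23 were above control and 22 below, so 47.9% were upward against 45.9% of 12707 measured genes, and the median was 0.00, as over all genes. AJUBA and TNNC1 were lower by 2-fold or more, where 0.535% of all measured genes were. For TNNC1 this rests on the dim end of the scale, since its difference was -0.44 with a floor at the 60th percentile and -0.68 when an offset replaced the floor. None of the 48 was higher by 2-fold, where 2.98% of all genes were, although ACTA2 was 1.99-fold higher. At 1.5-fold, ACTA2, CNN3, EVL and RHOB were higher (9.51% of all measured genes) and AJUBA, TNNC1 and TPM4 lower (3.38%). Both JMJD3 arrays were set against the same control array, so their differences from it are not independent.

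Set directly against each other, the wild-type JMJD3 array was above the mutant in 36 of 48 measured members, or 75%, against 49.7% of 12829 measured genes. The median was 0.31, beside 0.00 over all genes and 0.01 over bright ones, and lay between 0.28 and 0.32 under the alternatives. TNNC1, AJUBA, MYL9 and MYH9 were higher with wild-type by 2-fold or more, where 2.61% of all measured genes were. No member was lower by 2-fold, where 6.2% of genes were. At 1.5-fold, 9 were higher (11.3% of all genes), adding TPM4, PFN1, TPM2, GSN and VASP, and 4 were lower (15.9%), namely RDX, RAC1, ROCK1 and ACTA2.

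**Figure D1:**
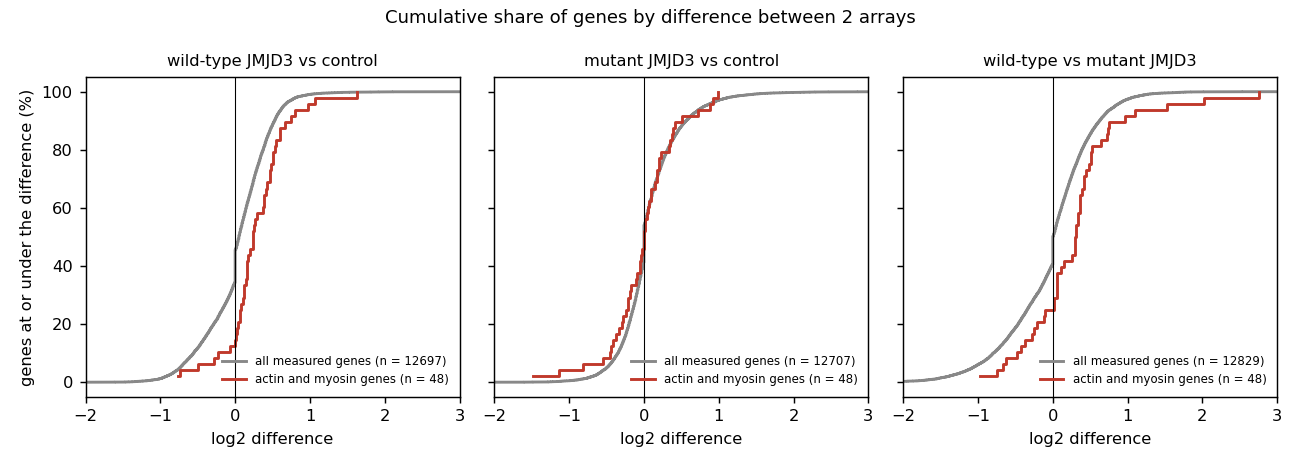
Cumulative share of genes (%) by log2 difference between 2 arrays, for the 48 measured actin and myosin genes (red) and all measured genes (grey), in each of the 3 comparisons. The red line lies to the right of the grey one over most of its length in the wild-type comparisons (medians 0.24 and 0.31) and near it in the mutant one (median 0.00).

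**Figure D2:**
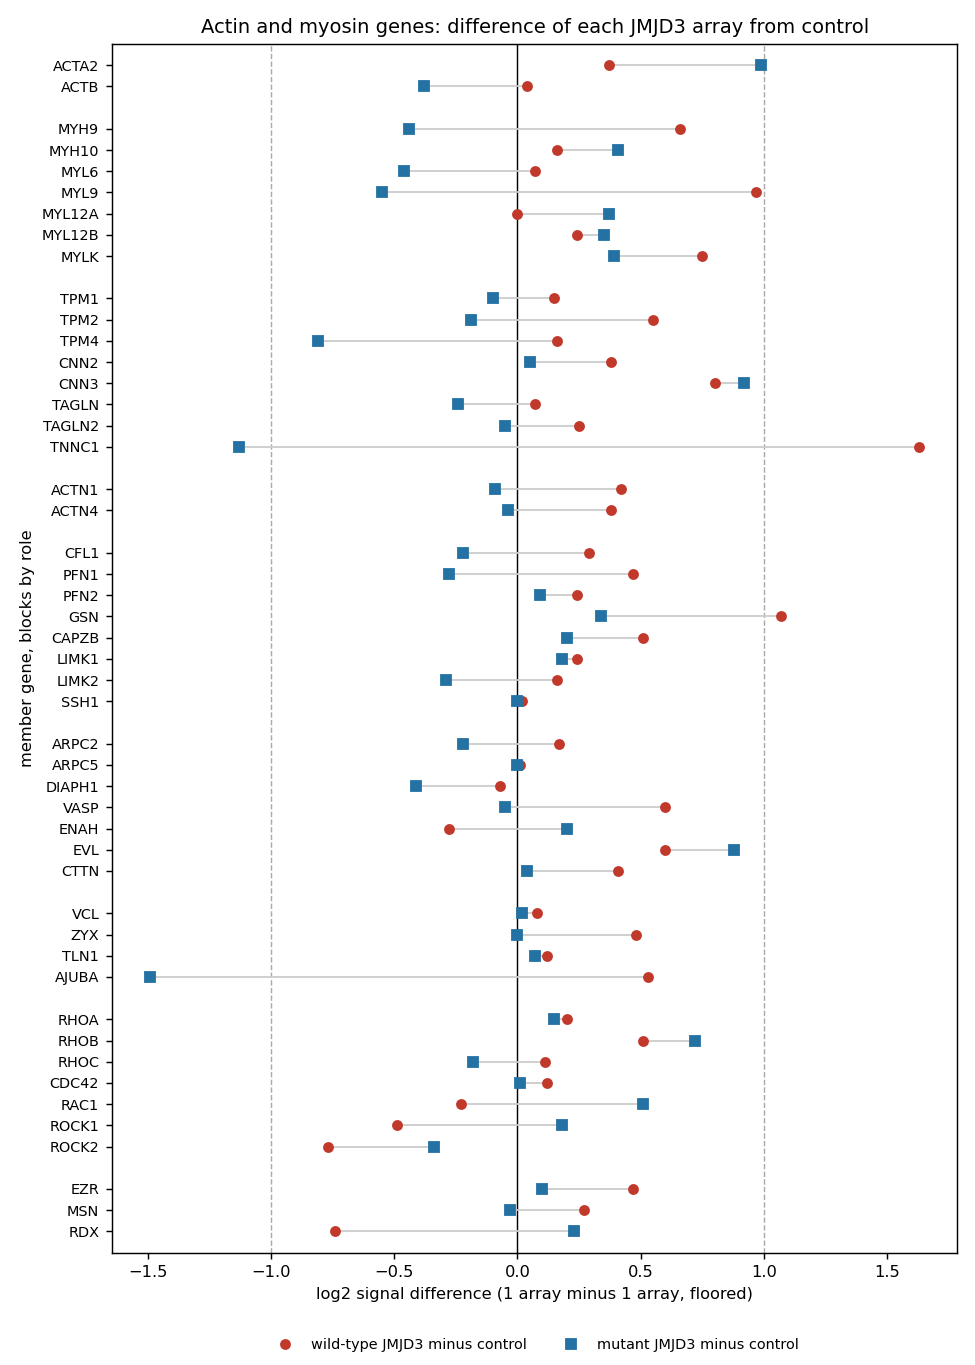
Log2 signal difference of the wild-type JMJD3 array (circles) and the mutant JMJD3 array (squares) from the same control array, for 48 members in blocks by role. Dashed lines mark 2-fold. TNNC1 spans 1.63 to -1.13 and AJUBA 0.53 to -1.49, while ROCK2 is under 0 in both.

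Of the actin isoforms, ACTB, the main cytoplasmic beta-actin, read log2 14.30 in control, 14.34 with wild-type and 13.92 with mutant JMJD3. The mutant array was 1.30-fold under control, and probe sets 213867_x_at (14.29, 14.30 and 13.85) and 224594_x_at (14.23, 14.28 and 13.89) went the same way. All 3 end in _x_at, which marks probes shared with other transcripts, and 9 further probe sets are annotated with both ACTB and ACTG1, so they may include gamma-actin. ACTA2, the smooth muscle alpha-actin that marks myofibroblasts, went another way, with 6.22 in control, 6.59 with wild-type and 7.21 with mutant JMJD3. It was thus highest in the mutant array, 1.99-fold over control, and reached 2-fold only when the arrays were shifted to one median. The ACTA2 gap between mutant and control shrank with quantile normalization. It was smallest when an offset replaced the floor, as the ACTA2 control signal is dim. Its other probe sets were under the floor.

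Among the myosin II genes the heavy chains were both above control with wild-type JMJD3 and on opposite sides of it with the mutant. MYH9, the heavy chain of non-muscle myosin IIA, read 8.71 in control, 9.37 with wild-type and 8.27 with mutant JMJD3. Wild-type exceeded mutant 2.14-fold and control 1.58-fold, on a single probe set with shared probes. The former was just under 2-fold when an offset replaced the floor. MYH10, the heavy chain of myosin IIB, was highest in the mutant array, with 8.28, 8.44 and 8.69 in the same order.

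The regulatory light chains also differed from one another. MYL9, a light chain of smooth muscle and non-muscle myosin, read 7.27 in control, 8.24 with wild-type and 6.72 with mutant JMJD3, so wild-type exceeded control 1.96-fold and mutant 2.87-fold. Its unshared probe set 244149_at was high in the same array but by less, at 5.82, 6.17 and 5.79, which is 0.38 between the JMJD3 arrays. MYL12A and MYL12B, the closely related non-muscle light chains, were highest with the mutant, at 11.08, 11.08 and 11.45 for MYL12A and 12.00, 12.24 and 12.35 for MYL12B. MYL6, the essential light chain, was lowest with the mutant (13.76, 13.83 and 13.30). MYLK, the light chain kinase, was above control in both JMJD3 arrays, with 10.43 in control, 11.18 with wild-type and 10.82 with mutant, and its second measured probe set, 202555_s_at, read 9.22, 9.76 and 9.25. Over 7 myosin II genes the median between wild-type and mutant was 0.36, but 0.01 without shared probe sets.

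Genes of proteins that lie along the filament held the widest spread. TNNC1 encodes the calcium sensor of slow skeletal and cardiac muscle troponin. Its only probe set read 6.61 in control, 8.24 with wild-type and 5.47 with mutant JMJD3, the last just under the floor. Wild-type was 3.10-fold over control and at least 6.77-fold over mutant, and the mutant was at least 2.19-fold under control. Of 15 other muscle marker genes with a probe set, 6 were over the floor in control and with wild-type JMJD3 and 7 with mutant, and their summed linear signals were 1461, 1774 and 2075 in that order. ACTC1, cardiac alpha-actin, was the one past 2-fold with wild-type (6.11 in control, 7.21 with wild-type and 6.00 with mutant). TNNT1, the brightest of these markers, makes up most of each sum. It was highest with the mutant (9.78, 10.10 and 10.57), 1.73-fold over control, unlike TNNC1. Of the muscle regulators, MYOG and MYOCD were under the floor in every array and MYOD1 just over it (5.63, 5.68 and 5.57). Their part in the TNNC1 result was not tested.

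The tropomyosins, which stiffen filaments and set which myosins and severing proteins can bind, were lowest in the mutant array at the probe sets used. TPM2 read 10.77 in control, 11.32 with wild-type and 10.58 with mutant JMJD3, and its unshared probe set 212654_at gave a larger gap, with 7.21, 7.73 and 6.37. TPM4 read 9.43, 9.59 and 8.62, so the mutant was 1.75-fold under control and 1.96-fold under wild-type. Its probe set 1567107_s_at followed (8.96, 9.18 and 8.03), but 209344_at did not (8.37, 8.26 and 8.26) and 1559989_at read 6.21 in every array. TPM1 read 12.28, 12.43 and 12.18, and 206117_at gave 9.57, 10.18 and 9.47. Another of its probe sets, 238688_at, opposed them, with 8.06 in control, 6.95 with wild-type and 7.41 with mutant JMJD3.

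The calponins and transgelins, which bind actin filaments of smooth muscle and many other cells, did not share one pattern. CNN3, acidic calponin, was over control in both JMJD3 arrays, with 7.67 in control, 8.47 with wild-type and 8.59 with mutant. Its probe set 228297_at repeated this with larger gaps (6.58, 7.49 and 8.08), which puts the mutant past 2-fold over control there. CNN2 was high with wild-type alone (7.92, 8.30 and 7.97), and CNN1, the smooth muscle calponin, was under the floor in all arrays (4.40, 4.35 and 4.25). TAGLN, a smooth muscle marker and SRF target, read 7.18, 7.25 and 6.94, and TAGLN2 11.50, 11.75 and 11.45. Over the 8 measured genes of this group the median was 0.32 for wild-type against control, -0.14 for mutant against control and 0.32 for wild-type against mutant, with the same signs under every alternative.

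**Figure D3:**
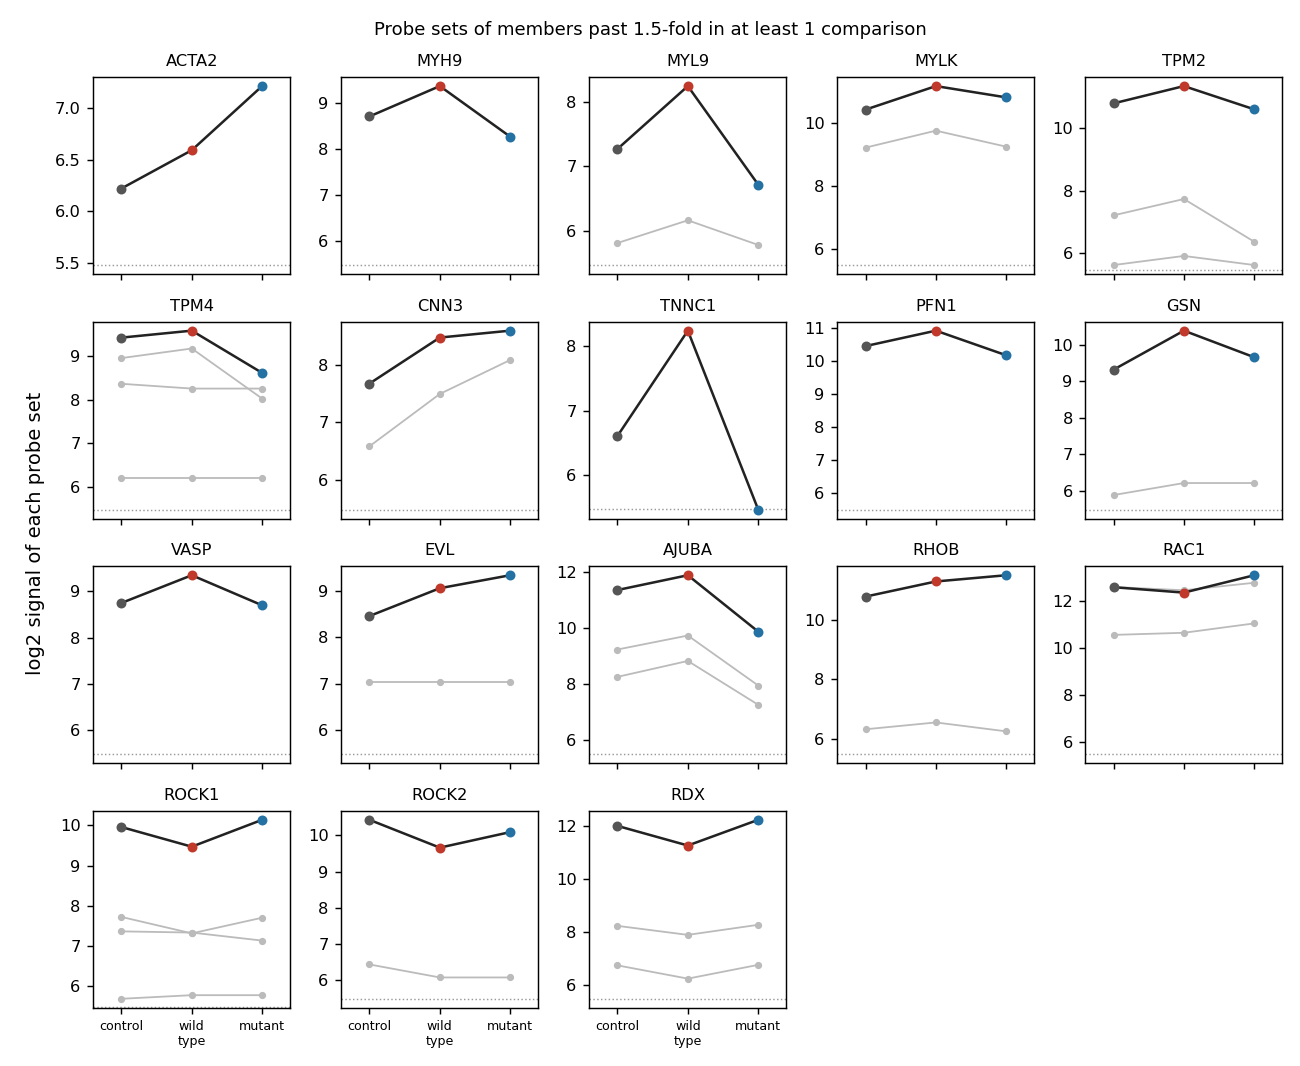
Log2 signal of every probe set over the floor in at least 1 array, for the 18 members past 1.5-fold in at least 1 comparison; the vertical scale differs between panels. Black lines with coloured points are the probe set used, grey lines are the others, and the dotted line is the floor (5.48). AJUBA and RDX move alike in all lines shown, while TPM4, EVL and RHOB do not.

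The crosslinkers were higher with wild-type JMJD3 than in either other array. ACTN1, an alpha-actinin of stress fibres, read 11.17 in control, 11.59 with wild-type and 11.08 with mutant, and its shared probe sets 208637_x_at (9.44, 9.87 and 9.10) and 211160_x_at (9.44, 9.72 and 9.18) repeated this order. ACTN4, the other non-muscle alpha-actinin, read 9.08, 9.46 and 9.04. Both lay within 0.09 of control with the mutant.

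At the probe sets used, the 8 genes of filament turnover read higher with wild-type JMJD3 than in the other arrays, by 0.02 to 1.07 over control and by 0.02 to 0.75 over mutant. Over all measured genes 54.4% and 49.7% were upward in these comparisons. The 14 measured turnover and capping genes outside the members were split. With wild-type, 8 were above and 6 below control, and 8 above and 5 below mutant, with a median of 0.04 in each comparison. SSH1 was nearly level in both, and LIMK1 only between the JMJD3 arrays (0.06, against 0.24 over control). GSN, gelsolin, which severs and caps filaments in response to calcium, read 9.32 in control, 10.39 with wild-type and 9.66 with mutant JMJD3. It was 2.10-fold over control with wild-type, on a shared probe set. The other measured probe set, 214040_s_at, lay nearer the floor and gave 0.33 for either JMJD3 array (5.88, 6.21 and 6.21), so that the median over both was 0.70. CFL1, the main non-muscle cofilin, read 13.70, 13.99 and 13.48, with a wider gap at 1555730_a_at (9.76, 10.17 and 9.20). PFN1, the ubiquitous profilin, read 10.46, 10.93 and 10.18, so wild-type was 1.68-fold over mutant, whereas PFN2 differed less (12.47, 12.71 and 12.56). CAPZB, a subunit of the barbed-end capping protein, read 10.24, 10.75 and 10.44, with smaller gaps at 201949_x_at (9.54, 9.72 and 9.71) and 201950_x_at (8.61, 8.68 and 8.61).

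Kinases and a phosphatase that act on cofilin differed little at the probe sets used. LIMK1 read 6.23 in control, 6.47 with wild-type and 6.41 with mutant JMJD3, and its unshared probe set 204356_at read 6.02, 6.02 and 6.00. LIMK2 read 7.59, 7.75 and 7.30, while its dimmer probe set 210582_s_at spanned 6.76, 7.21 and 6.09, which is 1.12 between the JMJD3 arrays. SSH1, the slingshot phosphatase that reactivates cofilin, read 8.61, 8.63 and 8.61. Its dimmer probe set 1554274_a_at was higher with wild-type (5.70, 6.24 and 5.90), and 221753_at read 7.44 in every array.

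Genes of nucleation and elongation did not share one pattern. The Arp2/3 subunit ARPC2 read 12.40 in control, 12.57 with wild-type and 12.18 with mutant JMJD3, and ARPC5 was level at 11.22, 11.23 and 11.22. DIAPH1, the formin that RHOA activates, was lowest with the mutant (10.87, 10.80 and 10.46). The 3 Ena/VASP genes, whose proteins speed elongation at filament ends, went 3 ways. VASP was high with wild-type (8.75, 9.35 and 8.70), EVL was over control in both JMJD3 arrays (8.46, 9.06 and 9.34), and ENAH was lowest with wild-type (10.47, 10.19 and 10.67). The ENAH order was the same at 222433_at (10.16, 9.83 and 10.36) and 228310_at (7.36, 6.98 and 7.76), while the second EVL probe set, 227232_at, read 7.04 in every array. CTTN, cortactin, which stabilises branched filaments, read 10.80, 11.21 and 10.84. Its probe sets 214073_at (7.27, 8.17 and 8.36) and 214074_s_at (7.65, 8.27 and 8.14) were over control in both JMJD3 arrays, the former by 1.09 with the mutant, and 214782_at was lowest with wild-type (7.12, 6.69 and 7.09).

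In the adhesion plaque one gene stood apart from the other 3. AJUBA, a LIM protein that shuttles between adhesions and the nucleus and restrains the Hippo pathway kinases, read 11.36 in control, 11.89 with wild-type and 9.87 with mutant JMJD3. It was 2.81-fold lower than control with the mutant, and wild-type exceeded mutant 4.06-fold. Probe sets 1553764_a_at (9.23, 9.73 and 7.94) and 225807_at (8.25, 8.82 and 7.25) kept both the order and 2-fold gaps between mutant and the others. ZYX, zyxin, which gathers at strained stress fibres, read 6.86, 7.34 and 6.86. VCL, vinculin, read 12.11, 12.19 and 12.13, and TLN1, talin, which links integrins to actin, 5.85, 5.97 and 5.92. The talin probe set used lies near the floor, and 203254_s_at read 5.60, 6.13 and 5.56.

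Among the GTPases and kinases that signal to actin, ROCK1, ROCK2 and RAC1 were lowest with wild-type JMJD3. ROCK2 read 10.43 in control, 9.66 with wild-type and 10.09 with mutant, which puts wild-type 1.71-fold under control. Its other measured probe set, 211504_x_at, was under control in both (6.43, 6.07 and 6.07). ROCK1 read 9.96, 9.47 and 10.14, and 214578_s_at went the same way (7.72, 7.31 and 7.70), but 230239_at did not (7.36, 7.33 and 7.13). RAC1, which drives lamellipodia, was highest with the mutant at 12.59, 12.36 and 13.10, and 1.67-fold over wild-type there. Its probe sets 208641_s_at (12.60, 12.46 and 12.78) and 1567458_s_at (10.56, 10.65 and 11.05) had the mutant highest too.

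RHOA, the GTPase upstream of ROCK and DIAPH1, read 13.13 in control, 13.33 with wild-type and 13.28 with mutant JMJD3. Its unshared probe set 1555814_a_at had the mutant under control (11.36, 11.46 and 11.23). RHOB, an immediate early gene whose protein sits on endosomes, was over control in both JMJD3 arrays, at 10.79, 11.30 and 11.51, though 1553962_s_at read 6.32, 6.55 and 6.25. RHOC, linked to invasion, read 10.78, 10.89 and 10.60, and CDC42, which drives filopodia, 9.44, 9.56 and 9.45. The CDC42 probe sets 208727_s_at (8.41, 8.73 and 8.27) and 226400_at (8.69, 8.90 and 8.53) had the mutant under control.

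The linkers of the plasma membrane to actin, ezrin, moesin and radixin, did not move as one. RDX, radixin, read 12.00 in control, 11.26 with wild-type and 12.23 with mutant JMJD3, so wild-type was 1.67-fold under control and 1.96-fold under mutant. Probe sets 212398_at (8.23, 7.89 and 8.27) and 204969_s_at (6.74, 6.24 and 6.76) agreed in order. EZR, ezrin, was highest with wild-type at 10.24, 10.71 and 10.34, and 208622_s_at gave 9.08, 9.62 and 8.74, but 208621_s_at read 8.64, 8.49 and 8.60. MSN, moesin, read 12.19, 12.46 and 12.16. The median of these 3 was 0.30 for wild-type against mutant and -0.33 without shared probe sets, which leaves out EZR.

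Other probe sets of the members mostly went the way of the one used. Where the latter differed by at least 0.1, 41 of 53 other measured probe sets went the same way for wild-type against control, 8 went against it and 4 were level. For mutant against control these counts were 35, 8 and 4 of 47, and for wild-type against mutant 43, 6 and 7 of 56. Probe sets of a gene share the RNA of an array and are no replicates of a line. Of the 49 probe sets used, 21 had shared probes.

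The 5 genes with a CArG box shown above were spread over both directions. MYLK, CNN2 and ACTN1 were 0.75, 0.38 and 0.42 over control with wild-type JMJD3, TPM4 was 0.16 over it and ROCK2 was below it, at -0.77. With mutant JMJD3 they stood at 0.39 for MYLK, 0.05 for CNN2, -0.09 for ACTN1, -0.81 for TPM4 and -0.34 for ROCK2. SRF itself read 8.08 in control, 8.35 with wild-type and 7.77 with mutant, and its coactivator MRTFA 6.90, 7.16 and 6.66. MRTFB was the reverse, with 9.20, 8.75 and 9.34. SRF and MRTFA were therefore highest with wild-type by small margins, and MRTFB lowest.

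Other genes of the pathway, 99 by name with a probe set for 89, lay closer to the whole array. With wild-type JMJD3 against control, 45 of 87 measured were above and 36 below, around a median of 0.02. ARPC3, an Arp2/3 subunit, was the only one past 2-fold (0.953% of all genes were higher by that much), with 9.58 in control, 10.87 with wild-type and 10.06 with mutant JMJD3. With mutant JMJD3, 39 of 86 were above control and 39 below. There FMNL2, a formin of lamellipodia, was 2.04-fold higher (8.65, 8.52 and 9.68) and PARVA, the alpha-parvin of the integrin-linked kinase complex, 2.20-fold lower (8.90, 9.28 and 7.76), where 2.98% and 0.535% of all genes were.

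Between wild-type and mutant, 47 of 87 were higher with wild-type and 34 lower, with 3 and 6 of them past 2-fold, where 2.61% and 6.2% of all measured genes were. These counts are near the shares over the whole array, and the genes are named as a description. Higher were PARVA (2.87-fold), the zyxin relative TRIP6 (2.13-fold) and the Arp2/3 subunit ARPC4 (2.06-fold). Lower were the atypical small GTPase RHOU (2.55-fold), the GTPase-activating protein ARHGAP5 (2.50-fold), FMNL2 (2.23-fold) and RHOBTB3 (2.19-fold), followed by DIAPH2 and WASL. The adhesion plaque genes outside the members had a median of 0.38 with 10 of 13 higher, where 49.7% of all measured genes were. Other lists had medians of 0.26 (Arp2/3 and WAVE subunits), 0.04 (turnover and capping) and 0.02 (myosins and myosin phosphatase). Bundlers and stress fibre genes were at 0.00, formins at -0.21, and the 3 measured genes of SRF and its coactivators at 0.50.

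**Figure D4:**
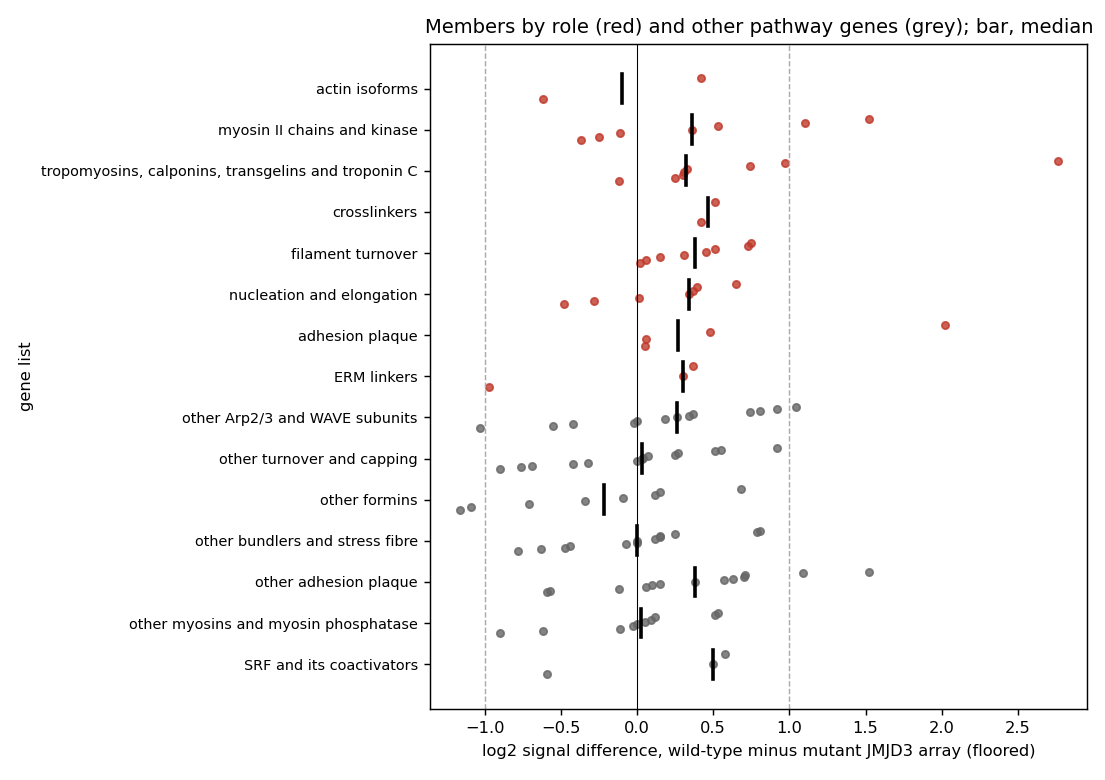
Log2 signal difference of the wild-type minus the mutant JMJD3 array for each measured gene, in 8 roles of the members (red) and 7 lists of other pathway genes (grey); black bars are medians and dashed lines mark 2-fold. Turnover genes among the members lie at or above 0.02, while the other turnover and capping genes have a median of 0.04. The other adhesion plaque genes have a median of 0.38, and the other formins -0.21.

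Of markers of other cells, those of fibroblasts were in part well over the floor. Of 6 leukocyte and endothelial markers with a probe set, PECAM1 was the one over the floor, in each array and within 0.01, and PTPRC read 3.41 throughout. Of 7 fibroblast markers, PDGFRB, DCN, COL1A1 and THY1 were over the floor in every array, and PDGFRA, LUM and COL3A1 in none. COL1A1 read 10.16 in control, 10.69 with wild-type and 10.38 with mutant, and PDGFRB 6.86, 7.46 and 6.23. The summed linear signals of the 7 were 1420 in control, 1998 with wild-type and 1571 with mutant JMJD3. COL1A1, by far the brightest, makes up most of each sum. DCN (5.68, 5.86 and 5.68) and THY1 (6.11 in each array) differed little or not at all. The part of these markers in the differences of the members was not tested. Summed signals of the 6 epithelial markers were 15230, 17479 and 9854, lowest with the mutant. KRT18 (13.40, 13.47 and 12.83), KRT8 (11.76, 11.97 and 10.67) and KRT7 (9.66, 10.80 and 9.16) were lowest there too. Other markers of that list differed from this, as EPCAM was highest with the mutant (6.17, 5.83 and 7.07) and KRT19 was over control in both JMJD3 arrays, by 2.45 with wild-type and 2.18 with mutant on the log2 scale.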

How the data were processed

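Biotin-labelled RNA of the 3 lines was hybridised to Affymetrix 3' arrays, 1 per line. The deposited values are log2 signals to 2 decimals, with scaling between arrays unstated; the submitters' processing notes name MAS5 with no settings. The sorted columns differed by at most 0.14. Names came from the platform annotation: of 54613 probe sets, 41091 had 1 symbol and 1801 several, which were left unnamed. RefSeq GRCh38.p14 served for names and promoters only.

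Differences are between floored log2 signals, and folds against the floor are bounds ("at least"). Calls were made at 2-fold; 1.5-fold was added after seeing the data. All listed genes are named, and of other pathway genes up to 4 per side past 2-fold in a comparison, and the SRF genes; DIAPH2 and WASL were named after their values were seen. The members and lists were chosen with earlier results of these data known. Another 7 settings for scaling, floor and probe set were tried, besides each further probe set. The summary of 1 role group and 1 pathway list is not reported here. The number of arrays limits precision. The steps were tested on simulated data. Calculations used pandas 2.3.3 and numpy 2.4.6 in Python 3.11.15, and plots matplotlib 3.10.9.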

Additional observations from a re-analysis of the deposited data

How the results depend on the processing

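No paired analysis was possible because each line has 1 array. The counts of members past 2-fold moved in these cases. For wild-type JMJD3 against control, 2 higher became 1 with the median over probe sets and 1 without shared probe sets, as GSN dropped out. For mutant against control, 0 higher became 1 with the arrays shifted to one median (ACTA2) and 1 with the median over probe sets (CNN3), and 2 lower became 1 when the floor was the 60th percentile and 1 with the offset (TNNC1). The 4 higher with wild-type than mutant became 5 at most, with quantile normalization (TPM4), and 3 at fewest. Without shared probe sets the 3 were TNNC1, AJUBA and TPM2 (1.36). There MYL9 fell under 2-fold, and MYH9 was left out because it has no unshared probe set. At 1.5-fold, a threshold chosen after seeing the data, the counts were 8 higher and 2 lower for wild-type against control, 4 higher and 3 lower for mutant against control, and 9 higher and 4 lower for wild-type against mutant. No member past 2-fold turned sign under any setting or further measured probe set. Between wild-type and mutant, MYL9 was at 0.38 without shared probe sets and at 0.95 with the median over probe sets. Dim signals limit TNNC1 and TLN1, which lie near the floor. They also limit ACTA2, which read 6.22 in control and had its smallest gap between mutant and control with the offset.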
